A study of Mus musculus with 24 samples.

Results

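The genes described here are 7 matrix metalloproteinases, Mmp2, Mmp3, Mmp9, Mmp12, Mmp13, Mmp14 and Mmp19, and 3 of their tissue inhibitors, Timp1, Timp2 and Timp3, in mouse implants of a ceramic bone substitute. They were taken by symbol, 10 of the 51138 genes in the count table, and all 10 had enough counts to be tested among 30564 genes. Matrix metalloproteinases are zinc proteases that cut collagens, elastin, proteoglycans and other matrix proteins, and most are secreted as inactive precursors. Tissue inhibitors of metalloproteinases bind the active enzymes and block them. In a healing or foreign-body site both are made by macrophages, neutrophils, fibroblasts and bone-forming cells, and bone remodelling needs several of them.

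Each implant held 40 mg of biphasic calcium phosphate (BCP) granules, lay under the back skin of Foxp3-DTR/eGFP mice aged 8 to 9 weeks, of both sexes, and was collected at week 2. The groups, of 4 samples each, were the ceramic alone (BCP), ceramic seeded with 800000 bone marrow mesenchymal stromal cells (MSC) of passage 2 (BCP+MSC), seeded MSC kept in 10 nM resolvin E1, a pro-resolving lipid, before implantation (BCP+MSC+RvE1), and seeded MSC cocultured with activated regulatory T cells (Treg) at a ratio of 1 to 1 (BCP+MSC+Treg). In 2 further groups the mice carried BCP+MSC and received diphtheria toxin at 50 µg/kg, alone ((dep)BCP+MSC) or with daily local injections of 1 µM RvE1 ((dep)BCP+MSC+RvE1inj). All hosts, controls included, carried the toxin receptor and eGFP under the control of Foxp3, the transcription factor that marks Treg, so the toxin is meant to remove Treg. No group received toxin without the receptor, so an effect of the toxin and an effect of losing Treg cannot be told apart. Each mouse carried 2 implants of its group's type, and whole constructs were extracted, so seeded and host cells are mixed.

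Sequencing depth differed 17.0-fold between samples, with 8482701 to 144417743 counts, and the fewest counts of any of the 10 genes in a sample were 68 (Mmp9). Levels are given as CPM, each gene's share of a library's reads on a common scale, after scaling for library composition. Foxp3, the gene the toxin model targets, was checked first. Mean Foxp3 was 0.985 ± 0.542 CPM there, against 0.933 ± 0.240 CPM without toxin in BCP+MSC (4 samples each, SD), and the estimated log2 fold change was 0.04 (95% interval -1.0 to 1.07, edgeR, adjusted p = 0.989). Foxp3 had only 17, 37, 83 and 18 counts in the (dep)BCP+MSC samples, so a loss up to the lower bound of that interval could not be told from none at this depth. The depletion was not seen in these libraries, and (dep) is used only as the label. The study reported Treg depletion by flow cytometry in lymph nodes and spleen. Those are other tissues and another measure than RNA of whole implants, so the Foxp3 counts do not speak to it. The (dep)BCP+MSC samples lay apart from each other. For Mmp12 and Mmp13, replicates 1 and 2 lay far below the samples numbered 4 and 5, and also below every sample of the other groups. The fitted values and counts of calls that rest on this group are therefore also given without replicates 1 and 2, a choice made after the data were seen. In bulk tissue, fewer cells of a type and less RNA per cell cannot be told apart.

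Mmp3, Mmp12 and Mmp13 are neighbours in a cluster of 10 metalloproteinase genes that spans 427 kb of chromosome 9 (GRCm38, 7272514 to 7699585). Within it Mmp13 lies at 7272514 to 7283331, Mmp12 at 7344381 to 7369499 and Mmp3 at 7445822 to 7455975, all on the plus strand. The others are scattered over the genome. Mmp2 lies on chromosome 8, Mmp9 on chromosome 2, Mmp14 on chromosome 14, Mmp19 and Timp3 on chromosome 10, Timp1 on the X chromosome and Timp2 on chromosome 11. Reads were counted without regard to strand, and 3 of the 10 genes share exon bases with a gene on the opposite strand. Mmp12 shares 157 bases with Mmp1b, Mmp19 shares 789 with Tmem198b and 212 with Gm47093, and Timp3 shares 1733 with Syn3, so the levels of these 3 are less certain.

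The promoters of the 3 clustered genes are shown because Mmp12 and Mmp13 both fell into a low and a high pair of samples in (dep)BCP+MSC. That order of samples was not particular to the cluster, as given below. RefSeq promoter sequences (GRCm38.p6, 250 bases before to 50 after the start) were found for 7 of the 10 genes. Each line gives 90 bases of the plus strand, 5′ to 3′, with matches to TGANTCA, the letters bound by AP-1 factors, and to TATAAA, the letters of a TATA box, in capitals. The windows are chr9:7272434-7272523 for Mmp13, chr9:7445742-7445831 for Mmp3 and chr9:7347294-7347383 for the second of the listed starts of Mmp12.
Mmp13: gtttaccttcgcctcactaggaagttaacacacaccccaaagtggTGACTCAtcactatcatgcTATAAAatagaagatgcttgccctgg
Mmp3: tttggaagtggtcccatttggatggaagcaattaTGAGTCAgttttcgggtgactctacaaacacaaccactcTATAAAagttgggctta
Mmp12: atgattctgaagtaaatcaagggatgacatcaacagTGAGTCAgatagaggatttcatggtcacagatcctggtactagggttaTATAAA
The TGANTCA match began 35 bases before the start in Mmp13, 46 in Mmp3 and 44 in Mmp12. The TATAAA match began 16 bases before the start in Mmp13 and 7 in Mmp3, but 4 bases after the listed start in Mmp12. Both motifs were searched on both strands, no match of one overlapped a match of the other in these windows, and TGANTCA reads alike on either strand. Of 32851 mouse promoters of the same length, 7.81% held TGANTCA, 13.6% held TATAAA and 1.54% held both. No match to either motif lay in the promoters of Mmp14, Timp1, Timp2 and Timp3, nor at the first listed start of Mmp12. Mmp2, Mmp9 and Mmp19 were the other 3 genes. Replicates 1 and 2 of (dep)BCP+MSC also lay below the samples numbered 4 and 5 for Timp1, Mmp14 and Timp2, which held no match. Timp1 had 49.9 and 80.6 against 188 and 478 CPM, Mmp14 430 and 409 against 530 and 703, and Timp2 644 and 593 against 826 and 731. Timp3 did not follow this order. A part of the motifs in the split was not tested. A match is a description of the letters and does not show that a factor binds there.

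Mmp12, the macrophage elastase, had by far the most reads of the 10 genes, with a median of 3779 CPM over the 24 samples and a range of 680 to 5623 CPM. Per kilobase of exon, which allows levels to be compared between genes, Timp1 came first with 689 ± 650 CPM per kb, followed by Mmp12 with 510 ± 197, Timp2 with 215 ± 33.3, Mmp14 with 184 ± 66.7 and Mmp2 with 154 ± 63.8 CPM per kb (SD, n = 24 each). Mmp19 had 126 ± 68.9, Mmp13 95.9 ± 75.0, Mmp3 81.1 ± 33.2, Mmp9 18.1 ± 8.36 and Timp3 9.62 ± 6.55 CPM per kb. Neighbours in this order differed by less than the larger of their SDs, other than Mmp12 over Timp2, Mmp3 over Mmp9 and, narrowly, Mmp9 over Timp3. The exon length used counts all annotated exons of a gene, so genes with long rare exons are set too low on this scale. The order of the first pair was not the same in every group, since Mmp12 had the higher mean in BCP (628 against 430 CPM per kb) and in (dep)BCP+MSC (336 against 224).

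The inhibitors differed most in how much they varied. Timp1, the inducible secreted inhibitor, ranged 53.2-fold over the 24 samples, from 49.9 CPM in (dep)BCP+MSC replicate 1 to 2657 CPM in BCP+MSC+RvE1 replicate 2. Timp2, which besides inhibiting takes part in the activation of the Mmp2 precursor by Mmp14, ranged only 1.85-fold, from 593 to 1099 CPM. Timp3, which binds to the matrix and also blocks ADAM and ADAMTS proteases, ranged 14.6-fold. Among the enzymes, the collagenase Mmp13 ranged 29.8-fold, the gelatinase Mmp9 18.1-fold and the membrane-bound Mmp14 4.31-fold.

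**Figure D1:**
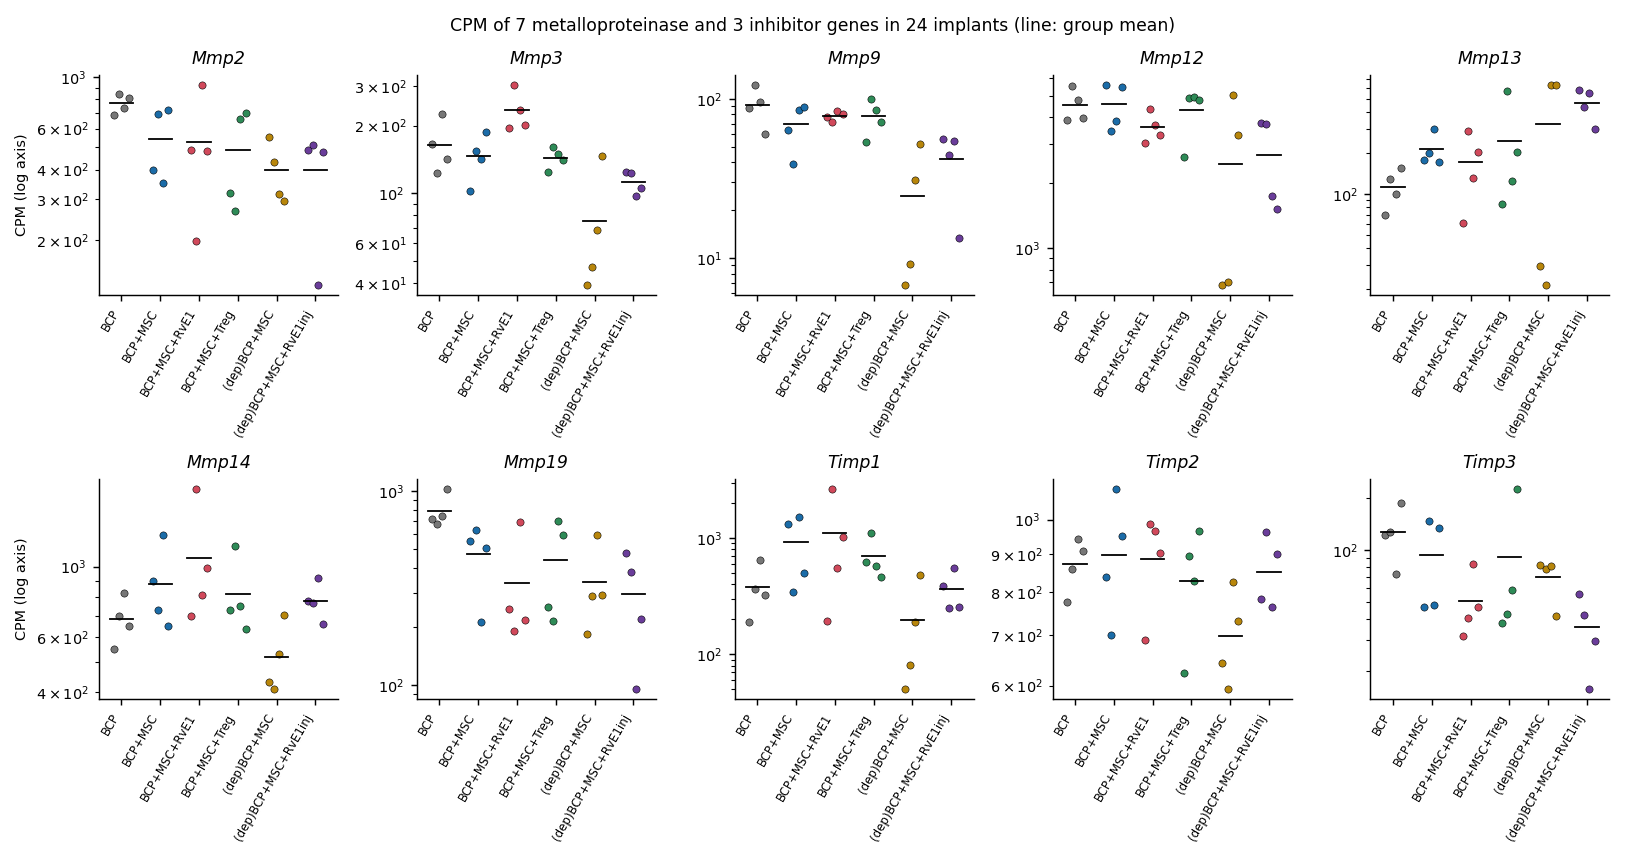
CPM on a log axis (vertical) of each of the 10 genes in the 6 groups (horizontal), with 1 point per sample and a line at the group mean. In (dep)BCP+MSC, Mmp12 and Mmp13 split into 2 low samples (680 and 699 CPM of Mmp12) and 2 high ones (5051 and 3306 CPM), while Timp2 stays between 593 and 1099 CPM in all 24 samples.

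The first question was whether seeding MSC onto the ceramic went with other levels of these genes. By edgeR, 0 of the 10 genes passed an adjusted p of 0.05 in BCP+MSC against BCP, where 0% of all genes did, and 0 passed an unadjusted p of 0.05, where 5.06% of all genes did. DESeq2 also called 0 at either threshold, beside 0.0196% of all genes adjusted and 4.29% unadjusted. Fitted on these 2 groups alone, edgeR called 0 adjusted (0% of all genes). It then called 3 unadjusted, Mmp13, Mmp19 and Timp1, where 3.53% of all genes passed. For 2 genes the samples of both groups did not overlap, which held for 1.81% of all genes. Mmp13, a collagenase of cartilage and bone, had 179, 200, 300 and 171 CPM in BCP+MSC and 69.9, 128, 99.5 and 155 CPM in BCP. All samples with MSC lay above all samples without, but the fitted log2 fold change of 0.91 (95% interval -0.76 to 2.58) missed the threshold (edgeR, adjusted p = 0.922). Mmp19, a secreted metalloproteinase, had 549, 632, 211 and 506 CPM in BCP+MSC and 718, 674, 745 and 1023 CPM in BCP. All BCP+MSC samples lay lower, with a log2 fold change of -0.73 (-1.77 to 0.30, adjusted p = 0.903). For both genes the exact two-sided permutation test gave p = 0.0286, the smallest that 4 against 4 samples allow. Timp1 had means of 923 ± 589 and 382 ± 195 CPM, and its groups overlapped (log2 fold change 1.27, adjusted p = 0.888).

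Priming of the MSC with RvE1 was compared with BCP and with BCP+MSC. Against BCP, 0 of the 10 genes passed the adjusted threshold (0% of all genes) and 4 passed an unadjusted p of 0.05, where 15.6% of all genes did, by edgeR. DESeq2 likewise called 0 adjusted and 4 unadjusted, beside 0.33% of all genes adjusted and 17.2% unadjusted. Of these 4, Mmp14 and Timp1 had higher and Mmp19 and Timp3 lower estimates with RvE1. Mmp14, the membrane-type enzyme that cuts collagen at the cell surface, had 700, 1763, 813 and 992 CPM in BCP+MSC+RvE1 and 549, 700, 828 and 647 CPM in BCP, a log2 fold change of 0.65 ± 0.28 (SE, adjusted p = 0.301). Timp1 had 195, 2657, 555 and 1021 CPM against 190, 364, 652 and 322 CPM, a log2 fold change of 1.54 ± 0.70 (adjusted p = 0.315). Replicate 2 was the highest sample for both genes, and without it their log2 fold changes were 0.29 and 0.63.

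Timp3 had 31.6, 40.2, 83.6 and 47.1 CPM in BCP+MSC+RvE1 and 122, 128, 73.2 and 187 CPM in BCP, a log2 fold change of -1.33 ± 0.54 (edgeR, adjusted p = 0.300). Mmp19 had 248, 191, 691 and 218 CPM against 718, 674, 745 and 1023 CPM, a log2 fold change of -1.23 ± 0.50 (adjusted p = 0.300). For both genes replicate 3 was the RvE1 sample closest to BCP, and without it the log2 fold changes were -1.68 for Timp3 and -1.85 for Mmp19. The summed level of 10 skeletal muscle markers was 23002 to 40677 CPM in BCP+MSC+RvE1 and 4582 to 19184 CPM in BCP. With the muscle marker level as a covariate, 0 of the 10 genes passed an unadjusted p of 0.05 (edgeR). Of all genes 5.58% then did, against 15.6% without the covariate. The log2 fold changes were 0.55 for Mmp14, 1.23 for Timp1, -1.0 for Mmp19 and -0.78 for Timp3. The part of muscle in the values of these genes was not tested.

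Against BCP+MSC, RvE1 priming gave 0 genes at the adjusted threshold by edgeR (0% of all genes). It gave 1 at an unadjusted p of 0.05 (3.26% of all genes). DESeq2 gave the same counts, beside 0.00982% of all genes adjusted and 2.63% unadjusted. The gene was Mmp3, stromelysin-1, which cuts proteoglycans and activates other metalloproteinase precursors. It had 195, 304, 235 and 202 CPM in BCP+MSC+RvE1 and 102, 154, 142 and 188 CPM in BCP+MSC. All primed samples were higher, as was so for 1 of the 10 genes and, in either direction, for 1.71% of all genes. The log2 fold change was 0.68 ± 0.30 (edgeR, adjusted p = 0.924, exact permutation p = 0.0286).

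Coculture with Treg was compared with all 3 other groups without toxin. The shares of all genes in brackets are those of edgeR. By DESeq2 they were 0.00982% adjusted and 7.36% unadjusted against BCP, 0% and 1.46% against BCP+MSC, and 0.00654% and 1.37% against BCP+MSC+RvE1. Against BCP, 0 of the 10 genes passed the adjusted threshold (0% of all genes), by edgeR and by DESeq2. At the unadjusted one 0 passed (7.6% of all genes), by both tools. Against BCP+MSC, the counts were again 0 adjusted (0% of all genes) and 0 unadjusted (2.72% of all genes) by both tools. Against BCP+MSC+RvE1, 0 genes passed adjusted (0% of all genes) and 1 unadjusted (2.37% of all genes) by both tools. That gene was again Mmp3, with 125, 160, 150 and 140 CPM in BCP+MSC+Treg, all below the primed samples given above, where groups of this kind did not overlap for 1.01% of all genes. Its log2 fold change was -0.70 ± 0.30 (edgeR, adjusted p = 1). The Mmp3 values of BCP+MSC+RvE1 are shared between this comparison and the one with BCP+MSC.

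Toxin treatment gave the smallest p-values of the 8 comparisons for these genes. In (dep)BCP+MSC against BCP+MSC, 9 of 10 estimates lay below 0, with a median log2 fold change of -0.63 where the median over all genes was -0.04. Without replicates 1 and 2, 9 of 10 lay below 0 again, with a median of -0.46 against -0.05 over all genes. By edgeR 0 of the 10 genes passed the adjusted threshold, where 3.92% of all genes did (534 higher and 664 lower). At an unadjusted p of 0.05, 4 genes passed, all lower, where 20.3% of all genes did in either direction. DESeq2 called 3 of the 10 at the adjusted threshold, where it called 9.35% of all genes, and 5 unadjusted, where it called 19.9%. Leaving out the (dep)BCP+MSC sample numbered 5, edgeR called 3, namely Mmp3, Mmp9 and Timp1, with 5.5% of all genes. With replicates 1 and 2 left out, 0 of the 10 passed adjusted, with 43 of 30189 genes (0.142%), and 1 unadjusted, with 9% of all genes.

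Mmp9, a gelatinase that neutrophils, macrophages and osteoclasts release, was at 6.78 CPM in (dep)BCP+MSC replicate 1 and 9.15 CPM in replicate 2, while the samples numbered 4 and 5 held 30.8 and 51.9 CPM. In BCP+MSC it had 64.2, 39.2, 84.6 and 89.5 CPM. Only the sample numbered 5 reached into the range of the group without toxin. The log2 fold change was -1.48 ± 0.48 (edgeR, adjusted p = 0.0891; DESeq2, adjusted p = 0.019), and -0.73 without replicates 1 and 2.

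Timp1 was at 49.9 CPM in replicate 1, 80.6 CPM in replicate 2, 188 CPM in the sample numbered 4 and 478 CPM in that numbered 5, against 1330, 343, 1520 and 497 CPM in BCP+MSC. Again the sample numbered 5 alone overlapped. The log2 fold change was -2.21 ± 0.70 (edgeR, adjusted p = 0.0952; DESeq2, adjusted p = 0.0113), and -1.45 without replicates 1 and 2. Mmp3 had 39.2, 47.2, 68.9 and 146 CPM against 102, 154, 142 and 188 CPM, with a log2 fold change of -0.95 ± 0.30 (edgeR, adjusted p = 0.0707; DESeq2, adjusted p = 0.0257), and -0.42 without replicates 1 and 2. Mmp14 had 430, 409, 530 and 703 CPM against 899, 729, 1258 and 648 CPM, with a log2 fold change of -0.77 ± 0.28 (edgeR, adjusted p = 0.121), and -0.50 without replicates 1 and 2.

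Mmp12 had 680, 699, 5051 and 3306 CPM in (dep)BCP+MSC and 5623, 3435, 3810 and 5492 CPM in BCP+MSC. The lowest pair was far below all other samples and the other pair within or near the range without toxin. The log2 fold change of -0.92 (95% interval -1.85 to 0.02, edgeR, adjusted p = 0.262) became -0.12 without replicates 1 and 2. Mmp13 was split more widely, with 29.5 CPM in replicate 1 and 21.4 CPM in replicate 2, but 627 and 637 CPM in the samples numbered 4 and 5, against 171 to 300 CPM in BCP+MSC. Its pairs lay on either side of the BCP+MSC samples, and the mean of 329 ± 350 CPM describes none of the 4. The log2 fold change was 0.63 (-1.04 to 2.30, adjusted p = 0.712), and 1.59 without replicates 1 and 2 (edgeR, adjusted p = 0.362).

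The remaining 4 genes had intervals that included 0. The log2 fold changes were -0.44 for the gelatinase Mmp2, -0.49 for Mmp19, -0.36 for Timp2 and -0.42 for Timp3, with adjusted p-values of 0.590, 0.629, 0.306 and 0.712 (edgeR). Without replicates 1 and 2 they were -0.81, -0.09, -0.19 and -0.61 in the same order.

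Markers of several cell types were also counted for the toxin. In this comparison 3.92% of all genes passed adjusted and 20.3% unadjusted, in either direction (edgeR). Of 7 fibroblast markers, 4 passed an adjusted p of 0.05 as lower (edgeR), and their summed level was 2421 to 5391 CPM in (dep)BCP+MSC and 6485 to 12537 CPM in BCP+MSC. Of 6 keratinocyte markers, 3 passed as higher, with sums of 11.8 to 293 and 1.93 to 29.6 CPM. Of 7 macrophage markers 0 passed the adjusted threshold and 1 the unadjusted one, as lower, with sums of 3611 to 6688 and 6393 to 7969 CPM. Within (dep)BCP+MSC, the macrophage sum was 3611 CPM in replicate 1 and 4423 CPM in replicate 2, while the samples numbered 4 and 5 held 6688 and 6464 CPM. Of 6 osteoblast markers 2 passed adjusted as lower, with sums of 18.5 to 25.9 and 20.0 to 44.5 CPM, and of 7 osteoclast and giant cell markers 1 did, with sums of 512 to 852 and 677 to 1081 CPM. Of 6 neutrophil markers 2 passed unadjusted as lower, and the sums in (dep)BCP+MSC were 80.2, 108, 150 and 482 CPM against 253 to 396 CPM. Of 6 T cell markers 2 passed unadjusted as higher, with estimates above 0 for all 6, and the sums were 24.9 to 98.3 and 15.4 to 38.5 CPM. Of the markers in these 7 lists, 0 were at 0 in all samples of either group.

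Some of these marker counts changed without replicates 1 and 2. Only 1 fibroblast marker, Fap, then passed the adjusted threshold, beside 0.142% of all genes. Fap is also in the list of matrix genes given below, as are the fibroblast markers Col1a1 and Dcn. Of the fibroblast markers 5 passed unadjusted as lower, beside 9% of all genes, and 0 passed adjusted in the other 6 lists. Replicate 1 held the keratinocyte sum of 293 CPM, the other (dep)BCP+MSC samples held 11.8 to 61.2 CPM, and without the pair 0 of 5 keratinocyte markers passed unadjusted. All 6 T cell markers then passed unadjusted as higher. The part of these markers in the values of the 10 genes was not tested.

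Daily injection of RvE1 was compared within the toxin-treated mice. In (dep)BCP+MSC+RvE1inj against (dep)BCP+MSC, 0 of the 10 genes passed adjusted (0% of all genes) and 1 unadjusted (7.42% of all genes), by edgeR. DESeq2 gave the same counts, beside 0.0262% of all genes adjusted and 6.91% unadjusted. The gene was Mmp14, with 778, 765, 920 and 660 CPM after injection and 430, 409, 530 and 703 CPM without. Only the lowest injected sample lay below the highest sample without injection, and the log2 fold change was 0.59 ± 0.28 (edgeR, adjusted p = 0.668), or 0.35 without replicates 1 and 2. Estimates lay above 0 for 8 of the 10 genes, with a median of 0.40 against 0.00 over all genes. Without replicates 1 and 2 they lay above 0 for 6, with a median of 0.06 against 0.02, and 0 of the 10 passed unadjusted, with 2.86% of all genes.

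Markers of other cells were counted for the injection as well. Of all genes, 7.42% passed unadjusted in this comparison, and 2.86% without replicates 1 and 2, in either direction (edgeR). Of 6 keratinocyte markers 4 passed unadjusted as lower, with sums of 1.90 to 61.8 CPM after injection and 11.8 to 293 CPM without, and 0 of 5 passed without the pair that holds the sample at 293 CPM. Of these markers 1, Dsg1a, was at 0 in all injected samples. Of 3 B cell markers 2 passed unadjusted as higher, and all 3 without that pair. Their sums were 31.7, 2.21, 6.42 and 30.9 CPM after injection and 1.68 to 9.78 CPM without. The pair left out also held the sample at 9.78 CPM. Of 6 T cell markers all had estimates above 0 and 0 passed, with sums of 69.4 to 106 and 24.9 to 98.3 CPM. Their part in the values of the 10 genes was not tested.

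Mmp13 was high in all 4 injected samples, at 584, 436, 550 and 301 CPM, and none resembled the low pair without injection. Its log2 fold change of 0.51 (95% interval -1.16 to 2.18, edgeR, adjusted p = 0.880) became -0.42 without that pair. For Mmp12, with 3748, 3722, 1731 and 1515 CPM after injection, the log2 fold change of 0.14 (adjusted p = 0.961) became -0.62. Timp3 had the lowest estimate of the 10 genes, with 55.9, 42.0, 15.6 and 29.6 CPM after injection and 81.6, 77.7, 80.5 and 41.7 CPM without (log2 fold change -0.97 ± 0.54, adjusted p = 0.674), and -0.74 without that pair. The difference between the injection effect and the priming effect of RvE1 was also fitted. Of the 10 genes 0 passed adjusted (0% of all genes) and 0 unadjusted (4.45% of all genes), by edgeR. DESeq2 gave the same counts, beside 0.00654% of all genes adjusted and 3.13% unadjusted.

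**Figure D2:**
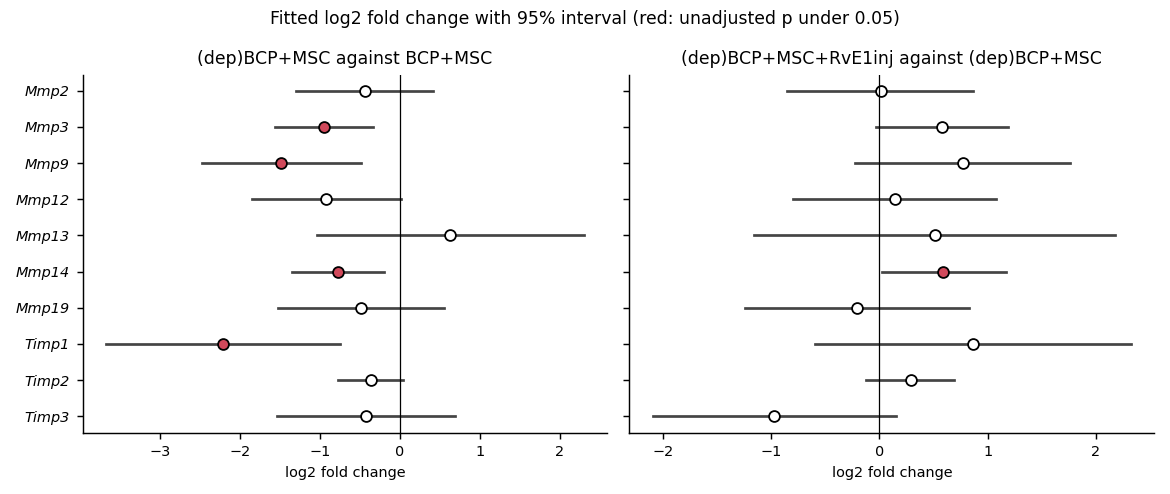
Fitted log2 fold change (horizontal) of each of the 10 genes (vertical) for toxin treatment (left) and for RvE1 injection in toxin-treated mice (right), with 95% intervals as bars and red points at an unadjusted p under 0.05. On the left Mmp3, Mmp9, Mmp14 and Timp1 are red, from -2.21 to -0.77, and on the right only Mmp14 is, at 0.59.

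The balance between enzymes and inhibitors was described by the summed CPM per kb of the 7 Mmp genes over that of the 3 Timp genes, with no test. The mean ratio was 2.23 ± 0.554 in BCP, 1.31 ± 0.713 in BCP+MSC, 1.29 ± 0.859 in BCP+MSC+RvE1, 1.30 ± 0.413 in BCP+MSC+Treg, 2.09 ± 0.725 in (dep)BCP+MSC and 1.65 ± 0.573 in (dep)BCP+MSC+RvE1inj (SD, n = 4 each). All groups overlapped BCP, whose samples ran from 1.49 to 2.83. Timp1, in the denominator, varied over a wider range than any of the enzymes. In BCP+MSC+RvE1 the ratio was 2.37 in replicate 1, with 195 CPM of Timp1, and 0.437 in replicate 2, with 2657 CPM.

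Both sums were low in (dep)BCP+MSC replicates 1 and 2, with 445 and 438 CPM per kb for the enzymes and 231 and 252 for the inhibitors, so the ratios of 1.92 and 1.74 were within the range of the other samples. Mmp12 made up 21.1% and 22.1% of the enzyme sum in this pair and 51.2% and 40.6% in the samples numbered 4 and 5. Over all 24 samples its share was 41.7% ± 8.81. These ratios are of transcripts and do not measure protein or activity.

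**Figure D3:**
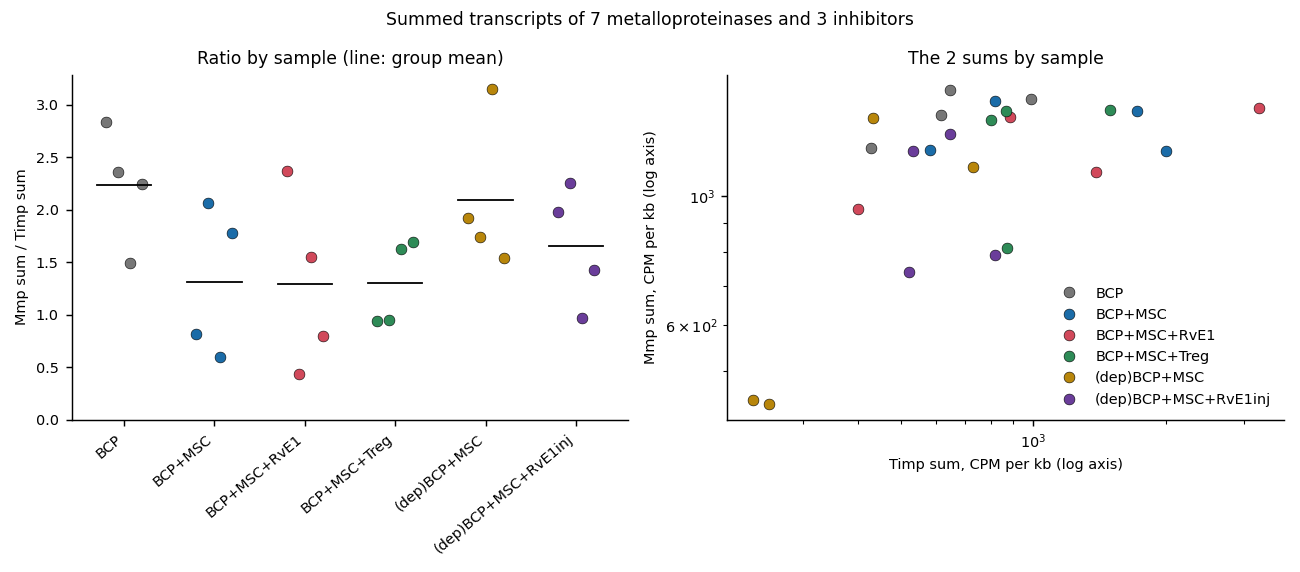
Left, the ratio of summed Mmp to summed Timp CPM per kb (vertical, from 0) by group, with 1 point per sample and a line at the mean. Right, the Mmp sum (vertical, log axis) against the Timp sum (horizontal, log axis), where (dep)BCP+MSC replicates 1 and 2 lie at the lower left, at 445 and 438 CPM per kb of Mmp.

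Some of the genes varied together from sample to sample. Correlations of log2 CPM were computed for the 45 pairs, with permutation p-values adjusted over them, in the 24 samples, in the 16 samples without toxin and in the 8 with toxin. By Pearson's r, 23 pairs passed an adjusted p of 0.05 over all samples, 10 without toxin and 5 with toxin. The pairs share libraries and depth, and no share among pairs of other genes is given beside these counts. The counts are therefore not read as a trait of both families. The pair that passed in each set was Mmp14 with Timp1. Over 24 samples r was 0.92 (permutation p = 1e-05, the smallest that 100000 permutations give, adjusted p = 0.00015) and rho was 0.86 (permutation p = 1e-05, adjusted p = 0.00045). Without the 2 samples of most extreme Mmp14 level r was 0.88, after centring each group it was 0.90, without toxin it was 0.90 and with toxin it was 0.92. Samples with more transcript of this cell-surface collagenase had more of the inducible inhibitor in both arms. Values this high were not particular to the pair. Over the 24 samples, the highest r among 12951 genes outside both families was 0.97 for Timp1 (Rpn1) and 0.94 for Mmp14 (Rcc1).

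Mmp2 and Mmp19 formed another pair, with r of 0.78 (permutation p = 1e-05, adjusted p = 0.00015) and rho of 0.74 (permutation p = 8e-05, adjusted p = 0.0012) over 24 samples, 0.67 without the 2 extreme samples, and r of 0.85 without toxin. With toxin r was 0.53 (exact permutation p = 0.194), and it became -0.66 without the 2 extreme samples, so in that arm it rests on them. In the samples without toxin, Mmp2 and Mmp14 ran in opposite directions, with r of -0.78 (permutation p = 0.0006, adjusted p = 0.009) and rho of -0.56 (permutation p = 0.025, adjusted p = 0.0867), and r of -0.53 without the 2 extreme samples. Mmp14 is known to act on the Mmp2 precursor.

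Mmp12 and Mmp13 had r of 0.90 with toxin (exact permutation p = 0.0032, adjusted p = 0.0366) and rho of 0.79 (exact permutation p = 0.0279, adjusted p = 0.209). Without toxin r was 0.34 (permutation p = 0.195, adjusted p = 0.381). The difference between the arms was not tested, and with toxin r was 0.64 without the 2 samples of most extreme Mmp12 level.

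**Figure D4:**
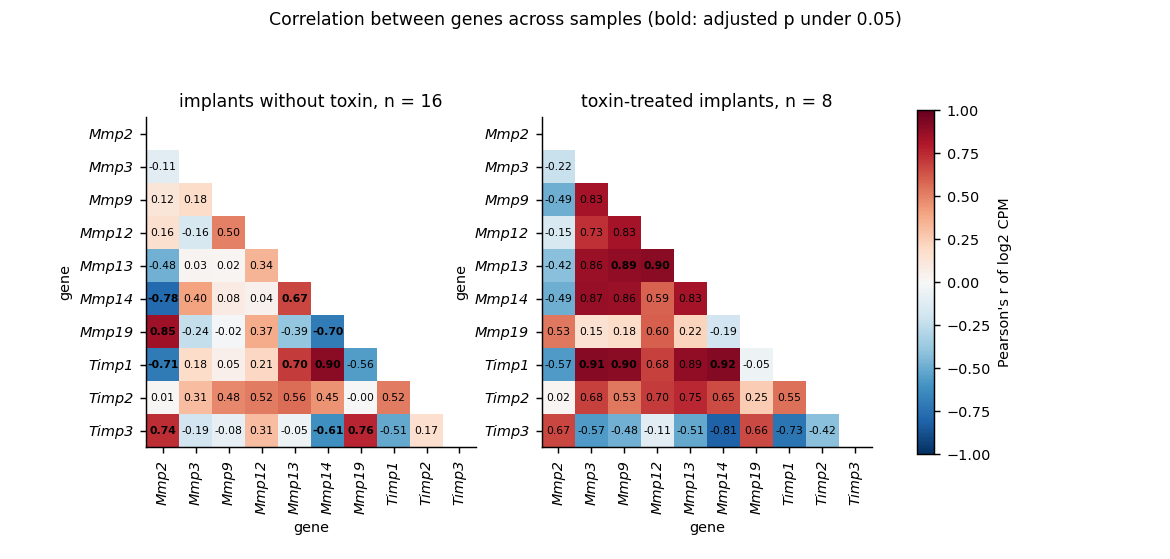
Pearson's r of log2 CPM (number and color) between each 2 of the 10 genes (both axes), in the 16 samples without toxin (left) and the 8 with toxin (right), with bold numbers at an adjusted p under 0.05. Mmp14 with Timp1 is bold in both panels, at 0.90 and 0.92, and Mmp2 with Mmp14 is bold on the left, at -0.78, but not on the right.

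The genes outside both families whose levels were most like those of each gene were listed from 12951 genes, as a description over the 24 samples. The 3 most like Mmp12 were Myrf (r = 0.96), Lcp1 (r = 0.95), an actin-bundling protein of leukocytes, and Slc25a13 (r = 0.94). The 3 most like Timp1 were Rpn1 (r = 0.97), Hsp90b1 (r = 0.95), a chaperone of the endoplasmic reticulum, and Dhdds (r = 0.95). For Mmp13 they were Il2ra (r = 0.90), a chain of the interleukin-2 receptor, Fcrlb (r = 0.88) and Cd244a (r = 0.87). For Mmp2 they were Igsf10 (r = 0.93), Abca9 (r = 0.92) and Nid2 (r = 0.92), a basement membrane protein. For Mmp14 they were Rcc1 (r = 0.94), Mgat1 (r = 0.93) and Prcp (r = 0.93), and for Mmp19 Bin2 (r = 0.94), Myof (r = 0.93) and Adcy7 (r = 0.93).

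For Mmp9 the most like were Hvcn1 (r = 0.93), a proton channel of phagocytes, Slc2a6 (r = 0.91) and Ndn (r = 0.91). In the 16 samples without toxin r was 0.54, 0.45 and 0.12 for the same genes. For Mmp3 they were Ncbp2, Marcks and Hoxc6 (r = 0.87 each), with 0.50, 0.39 and 0.66 without toxin. For Timp2 they were Slc9a9 (r = 0.86), Emx2os (r = 0.82) and Nxpe5 (r = 0.78), and for Timp3 Pkd2 (r = 0.95), Sp1 (r = 0.93) and Gnaq (r = 0.92).

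A list of 77 further genes of matrix breakdown, of which 75 were tested, was counted beside the 10. It held other metalloproteinases and inhibitors, activators, ADAM and ADAMTS proteases, cathepsins and matrix substrates. In 7 of the 8 comparisons 0 of these passed the adjusted threshold (edgeR), and at an unadjusted p of 0.05 at most 3 were higher and 13 lower, in BCP+MSC+RvE1 against BCP, where 15.6% of all genes passed. Toxin treatment against BCP+MSC was the exception, where 10 passed adjusted as lower and 2 as higher, beside 3.92% of all genes, with a median log2 fold change of -0.64. At an unadjusted p of 0.05, 28 were lower and 6 higher, beside 20.3% of all genes. Of the 18 matrix substrates 3 passed adjusted as lower and 12 unadjusted, with a median of -1.08. Without replicates 1 and 2, 1 of the 75 genes passed adjusted, as lower (0.142% of all genes), and 20 were lower and 6 higher unadjusted (9% of all genes). The list median was then -0.48, and 8 substrates passed unadjusted as lower, with a median of -1.22.

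The 6 with the smallest p all fell with the toxin (edgeR). Fap, a serine protease of activated fibroblasts, was at 6.38 to 8.94 CPM in (dep)BCP+MSC and 26.6 to 41.9 CPM in BCP+MSC, a log2 fold change of -2.03 ± 0.24 (SE, adjusted p = 9.75e-05). Mmp23 was at 16.8 to 26.8 and 43.1 to 73.4 CPM, a log2 fold change of -1.34 (adjusted p = 0.0017). Serpine2, an inhibitor of thrombin and plasminogen activators, was at 30.6 to 64.8 and 78.7 to 176 CPM, and the protease Htra1 at 45.8 to 80.8 and 132 to 219 CPM. Col6a1, a chain of collagen VI, was at 436 to 681 and 1220 to 2035 CPM, and the inhibitor Tfpi2 at 3.59 to 15.3 and 20.0 to 30.1 CPM. These 6 were chosen by smallest p in this comparison, so it is no added result that their ranges lay apart. For Fap, Htra1 and Col6a1 replicates 1 and 2 did not both lie below the samples numbered 4 and 5. For Mmp23, Serpine2 and Tfpi2 they did. Without that pair the log2 fold changes were -1.96 for Fap, which alone still passed (edgeR, adjusted p = 0.0109), -1.37 for Col6a1, -1.09 for Htra1, -1.08 for Mmp23, -1.07 for Tfpi2 and -1.05 for Serpine2.

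The 2 that passed as higher, named after their values were seen, were Mmp11, stromelysin-3, with means of 59.5 CPM in (dep)BCP+MSC and 16.1 CPM in BCP+MSC (log2 fold change 1.88), and Lcn2, which binds and protects Mmp9, with means of 112 and 9.00 CPM (log2 fold change 3.63). Without replicates 1 and 2 the values were 1.02 and 2.95, and neither passed.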

How the data were processed

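RNA was taken from whole constructs of 24 samples in 6 groups. Stranded mRNA libraries were sequenced as paired ends. The authors aligned reads with HISAT2 2.0.5 and counted them on exons with featureCounts 1.5.2 (GENCODE M13, GRCm38). The deposited values are these raw counts, without normalization, and the recorded command has no strand option. Groups came from the labels, and group details from the study's methods. For (dep)BCP+MSC the table numbers its columns 1, 2, 4 and 5 while the labels count from 1 to 4, so the columns 4 and 5 entered that group unnumbered.

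Genes whose counts summed to 10 or more were fitted with edgeR 4.0.16 in R 4.3.3, as 1 quasi-likelihood model over the 6 groups with TMM normalization and no covariates. Adjusted p-values are Benjamini-Hochberg values across the whole table. Exact permutation tests of single genes, two-sided, enumerated 70 arrangements. CPM were scaled by TMM, and log2 CPM used a prior count of 2. Log2 fold changes are model estimates, and ± after them is SE. The study used DESeq2 1.42.0, which was an alternative here, beside RLE normalization, other filters, a replicate block, covariates for library size and muscle markers, fits of only the groups compared, and each sample left out. The fits were also run on simulated data with 200 changed genes and the same spread for all genes. Those data held no split group like (dep)BCP+MSC, so they do not speak to how the fits treat it. Correlations used 100000 permutations, or all 40320 orders for 8 samples.

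The 10 genes and the lists were chosen with earlier results of these data known. The text names all 10, Foxp3, at most 6 genes of the matrix list past the adjusted threshold in a comparison, by smallest p, the only 2 of that list that passed as higher (Mmp11 and Lcn2, chosen after their values were seen), and the 3 genes most like each of the 10 among those with a mean log2 CPM of at least 1. Marker lists for 13 cell types were fixed, and those for fibroblasts, macrophages, keratinocytes, skeletal muscle, osteoblasts, osteoclasts, neutrophils, T cells and B cells are reported. Among the lists left out, 2 of 5 chondrocyte markers and 1 of 5 endothelial markers were lower unadjusted with toxin (20.3% of all genes, edgeR). Without (dep)BCP+MSC replicates 1 and 2 the counts were 1 and 3 (9% of all genes). The p-values and intervals of edgeR rest on the spread between mice within groups, pooled over all 6 groups. The split (dep)BCP+MSC group is part of that spread. For Mmp13 in BCP+MSC against BCP the unadjusted p was 0.273 in this fit. It was 0.00894 in a fit of these 2 groups alone (edgeR). At the depths given in the report, counting error among the 10 genes is largest for Mmp9, whose fewest counts were 68, and it is larger for Foxp3, with as few as 4.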

Additional observations from a re-analysis of the deposited data

Results flagged for a closer look

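In 5 of 60 groups of 4 values, 1 sample lay far from the other 3. Chance alone gives about 1 in 20 such groups. Mmp2 was at 128 CPM in (dep)BCP+MSC+RvE1inj replicate 3, where the others were at 475 to 509 CPM. Mmp12 was at 2628 CPM in BCP+MSC+Treg replicate 1, where the others were at 4768 to 4920 CPM. Mmp19 was at 691 CPM in BCP+MSC+RvE1 replicate 3, where the others were at 191 to 248 CPM. Timp3 was at 227 CPM in BCP+MSC+Treg replicate 4, where the others were at 37.8 to 58.8 CPM. Timp3 was also at 41.7 CPM in the (dep)BCP+MSC sample numbered 5, where the others were at 77.7 to 81.6 CPM.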

How the results depend on the processing

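In (dep)BCP+MSC against BCP+MSC the number of the 10 genes past an adjusted p of 0.05 was 0 (1198 of all genes), and 3 with DESeq2 (2859), 6 with a replicate block (2633), and 0 to 3 with single samples left out (3 without the sample numbered 5, with 1672). With the block it was also 4 in (dep)BCP+MSC+RvE1inj against (dep)BCP+MSC (408 of all genes) and 1, Mmp13, in the contrast of injection and priming (59). In that block the samples numbered 4 and 5 had a level of their own, so (dep)BCP+MSC rested on replicates 1 and 2. Replicate numbers name different mice, and the mean correlation of the deviations of same-numbered samples was -0.09 to 0.09, so the numbers were not taken as pairs. For the other comparisons the adjusted count of 0 stayed under all alternatives. Unadjusted counts moved more. In BCP+MSC against BCP the count was 0, but 3 with only the groups compared (3.53% of all genes) and 2 with the block (4.12%). In BCP+MSC+Treg against BCP it was 0, but 2 with only the groups compared (7.8%).

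Signs changed in 27 of 751 alternative values of 44 fold changes. With the block, log2 fold changes for toxin became 0.01 for Mmp2 and -2.99 for Mmp13, and for injection -0.42 for Mmp2 and 0.28 for Mmp19. For Mmp2 with injection the value was -0.05 with RLE, with DESeq2 and with the muscle covariate, -0.0037 with filterByExpr and -0.13 to 0.30 with samples left out. With samples left out, injection gave -0.17 to 0.78 for Mmp12 and -0.52 to 0.22 for Mmp19, and BCP+MSC+Treg against BCP+MSC+RvE1 gave -0.32 to 0.89 for Mmp13, -1.02 to 0.24 for Timp1 and -0.13 to 1.21 for Timp3. Without (dep)BCP+MSC replicates 1 and 2, an alternative added after seeing the data, injection gave -0.62 for Mmp12 and -0.42 for Mmp13, and the contrast -0.15 for Mmp9, -0.12 for Mmp13 and -0.15 for Timp1. The cause was not tested.

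On CPM without length, the mean log2 ratio of Mmp to Timp was 2.38 in BCP, 1.91 in BCP+MSC, 1.71 in BCP+MSC+RvE1, 1.99 in BCP+MSC+Treg, 1.87 in (dep)BCP+MSC and 1.88 in (dep)BCP+MSC+RvE1inj, against 1.12, 0.21, 0.09, 0.32, 1.00 and 0.65 per kb. This follows from dividing by length, which lowers Mmp12 and raises Timp1.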
